A study of Oryza sativa with 6 samples.

Results

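The 6 genes described here are the MADS-box transcription factors among 925 rice genes listed with counts and with FPKM, that is, fragments scaled for transcript length and for all mapped fragments of the library. They were taken as every gene whose description in the deposited table names a MADS-box factor: *OsMADS50* (*Os03g0122600*), *OsMADS55* (*Os06g0217300*), *OsMADS34* (*Os03g0753100*, listed as *PAP2*), *OsMADS26* (*Os08g0112700*), *OsMADS62* (*Os08g0494100*) and *Os06g0108500*, which has no symbol and is described as similar to AGL1. By their identifiers, chromosomes 3, 6 and 8 hold 2 of them each. RNA came from leaves at the booting stage in 3 *Dap1* samples and 3 WT samples, all in the *japonica* variety Zhonghua11 (ZH11) and grown in the field. *Dap1* plants carry a T-DNA inserted upstream of *OsWUS*, the rice *WUSCHEL* gene for a meristem homeodomain factor. The WT samples are ZH11 without the insertion. The labels do not say whether the *Dap1* plants sequenced were hemizygous, but the study found no homozygous plant, and *Dap1* is a single insertion line. *Dap1* plants headed later, and the day and hour at which leaves of each genotype were taken are not given in the sources used here, so time of sampling and genotype cannot be told apart for any value below.

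MADS-box proteins bind DNA as dimers or larger complexes through the conserved domain that names the family. In the plant MIKC type this domain is followed by a keratin-like domain that mediates pairing, and members of different subfamilies combine to set flowering time, inflorescence form and floral organ identity. Leaves matter for the first of these processes, since day length is sensed there and the mobile florigen signal is made there. Each member in the table belongs to a different subfamily as far as its subfamily is known. *OsMADS50* is the rice SOC1-like gene, an activator of flowering. *OsMADS55* is SVP-like and is known in rice as a repressor of brassinosteroid responses. *OsMADS34* is a SEPALLATA-like gene needed for inflorescence and spikelet development. *OsMADS26* is AGL12-like and acts in responses to pathogens and drought. *OsMADS62* belongs to the MIKC* group, whose rice members act in maturing pollen. A comparison between subfamilies is therefore a comparison between single genes here.

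The table lists only genes that the authors had called as changed in these same libraries, so a difference between *Dap1* and WT was a condition for being listed and the p-values are no independent test. The 6 libraries held between 244181 and 666483 counts on the listed genes, and library sizes were taken from the ratio of count to FPKM (relative sizes 0.862 to 1.11). The table gives 77, 100 and 105 counts for *OsWUS* in the *Dap1* libraries and 0 in each WT library, at least 30.2-fold higher in *Dap1* against a floor of 3 counts per WT library. None of 8 marker genes of shoot meristem and young panicle was among the listed genes, nor was any gene described as a chlorophyll a/b binding protein or a subunit of ribulose bisphosphate carboxylase. The tissue could therefore not be checked by markers. In whole leaves, fewer cells that express a gene and less RNA per cell cannot be told apart.

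In *Dap1* leaves 1 of the 6 MADS-box genes was higher and 5 were lower. *OsMADS50* rose about as much as *OsMADS55*, *OsMADS62* and *OsMADS26* fell, to 208% of its WT mean FPKM, while these 3 genes fell to 47.8%, 48.6% and 46.7%. *OsMADS34* and *Os06g0108500* fell much further, to 18.1% and 15.9%. All 6 genes were called. A call required an adjusted p (Benjamini-Hochberg) under 0.05 in the quasi-likelihood test of edgeR, together with a log2 fold change beyond 1 in either direction. The same rule called 98.6% of all listed genes, with 56.9% higher and 41.7% lower in *Dap1*. The FPKM of the 2 groups overlapped for none of the 6 genes, and the groups were separate for 99.0% of the listed genes. For each of the 6 the two-sided exact permutation test on FPKM gave p = 0.1, and a design of 3 libraries against 3 cannot go lower.

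**Figure D1:**
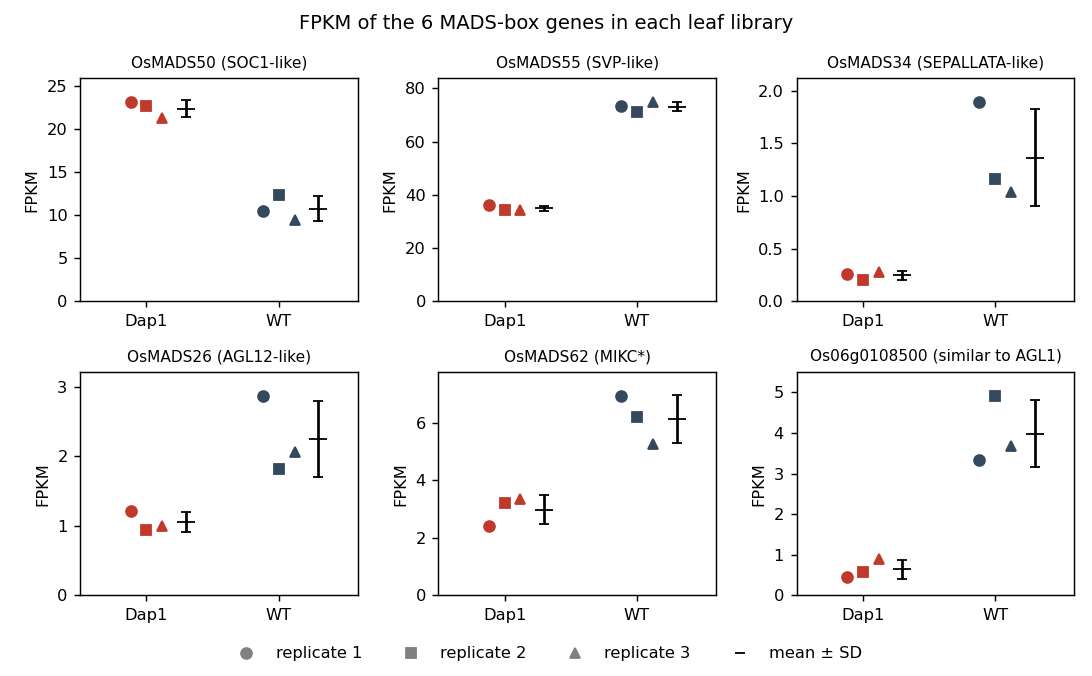
FPKM of each MADS-box gene in the 3 *Dap1* and 3 WT leaf libraries, 1 panel per gene, each with its own linear axis from 0. Symbols are replicates and the bar is the mean ± SD (n = 3); the *Dap1* points lie above the WT points for *OsMADS50* and below them for the other 5 genes.

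*OsMADS50*, the flowering activator, had an FPKM of 23.11, 22.73 and 21.32 in the *Dap1* libraries, against 10.47, 12.36 and 9.46 in the WT libraries. The lowest *Dap1* library was 1.73 times the highest WT library. The *Dap1* libraries lay close together (coefficient of variation 4.21%) and the WT libraries further apart (13.7%). The underlying counts were 437, 468 and 449 in *Dap1* and 230, 212 and 195 in WT. edgeR gave a log2 fold change of 1.05 with a standard error of 0.093 (adjusted p = 2.3e-10). The factors of TMM and DESeq2 take most genes to be unchanged, whereas every listed gene had been called as changed. With these factors, computed over the listed genes, the log2 fold change was 0.60 and 0.20. These scalings lower the median listed gene by 0.45 and 0.85. The rise was then under the threshold of 1, although the adjusted p in edgeR was 1.9e-06 and 0.047. The other 5 members, which all fell, were still called, against 79.5% and 69.6% of all listed genes in either direction. These shares are no match for genes that fell, since both scalings move fold changes downward. With each of them 393 listed genes were called lower, against 386 with the library sizes used here.

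*OsMADS55*, the SVP-like gene, was the most abundant of the 6 in both genotypes. Its FPKM was 36.15, 34.46 and 34.4 in *Dap1* leaves and 73.58, 71.21 and 74.79 in WT leaves. No other member was measured as precisely. The coefficient of variation was 2.84% in *Dap1* and 2.49% in WT, on means of 805 and 1652 counts per library. The log2 fold change in edgeR was -1.07 ± 0.046 (standard error), with an adjusted p of 1.1e-16, and came to -1.52 and -1.92 with TMM and DESeq2's factors. *OsMADS55* was also called when edgeR tested directly for an absolute log2 fold change beyond 1 (adjusted p = 0.038), although its fold change was nearly that of *OsMADS62*, which was not (adjusted p = 0.20).

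The SEPALLATA-like gene *OsMADS34* was barely expressed in *Dap1* leaves. The *Dap1* libraries had 6, 5 and 7 counts, against 50, 24 and 25 counts in the WT libraries. In FPKM this was 0.26, 0.2 and 0.28 in *Dap1* and 1.89, 1.16 and 1.04 in WT, where 1 FPKM corresponded to about 24.5 counts. The sum of 18 counts over the *Dap1* libraries has an exact 95% Poisson interval of 10.7 to 28.5, and the WT sum of 99 counts one of 80.5 to 121, both for counting error only. The intervals are far apart, and the lowest WT library had 3.71 times the FPKM of the highest *Dap1* library. WT replicate 1 stood above the other WT libraries. Its log2 fold change in edgeR was -2.45 ± 0.39 (standard error), with an adjusted p of 4.1e-06, and -2.13 once WT replicate 1 was set aside. It was -2.90 with TMM factors and -3.30 with DESeq2's factors. On the scale of log2(FPKM + 1), which understates changes of genes at this level, limma gave -0.91, inside the threshold. On that scale 2 of the 6 members were called, and 42.6% of the listed genes.

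*Os06g0108500*, named in the table only by its likeness to AGL1, a carpel and fruit gene of *Arabidopsis*, showed the largest fold change of the 6. Its FPKM was 0.44, 0.56 and 0.9 in *Dap1* leaves, against 3.34, 4.91 and 3.68 in WT leaves. The counts were 8, 11 and 18 in *Dap1* and 70, 80 and 70 in WT. The *Dap1* libraries varied most here of all members (coefficient of variation 37.7%, against 20.8% in WT), with replicate 3 the highest, and the lowest WT library still had 3.71 times the FPKM of the highest *Dap1* library. Its log2 fold change in edgeR was -2.61 ± 0.29 (standard error), with an adjusted p of 1.2e-08, and leaving out single libraries gave -2.95 to -2.42. The factors of TMM and DESeq2 gave -3.05 and -3.45. *Os06g0108500* and *OsMADS55* were the members called under each of the 14 alternative settings tried. The gene had 37 counts in all in *Dap1*, with an exact 95% Poisson interval of 26.1 to 51.0.

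*OsMADS62*, of the pollen-associated MIKC* group, was expressed in leaves of both genotypes. Its FPKM was 2.4, 3.2 and 3.35 in *Dap1* and 6.94, 6.22 and 5.26 in WT. The groups were 1.57-fold apart at their nearest libraries. Its log2 fold change of -1.04 ± 0.18 (standard error), with an adjusted p of 1.3e-05 in edgeR, lay 0.226 standard errors beyond the threshold of 1. It was -0.94 without WT replicate 1 and -0.91 without *Dap1* replicate 1, both inside the threshold. With TMM and DESeq2's factors the fall was larger, at -1.49 and -1.89.

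*OsMADS26*, the stress-response member, had 25, 21 and 23 counts in *Dap1* leaves, against 69, 34 and 45 counts in WT leaves. The FPKM was 1.21, 0.94 and 1.0 in *Dap1* and 2.87, 1.82 and 2.06 in WT. WT replicate 1 was again the highest WT library, and the groups were 1.504-fold apart at their nearest libraries. Its log2 fold change was -1.11 ± 0.26 (standard error), with an adjusted p of 4.3e-04 in edgeR, and came to -0.89, inside the threshold, when WT replicate 1 was left out. With TMM factors it was -1.57 and with DESeq2's factors -1.96. For *OsMADS50*, *OsMADS62* and *OsMADS26* edgeR's direct test for a change beyond 1 was not passed (adjusted p = 0.13, 0.20 and 0.16), while 3 of the 6 members and 69.1% of the listed genes passed it.

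**Figure D2:**
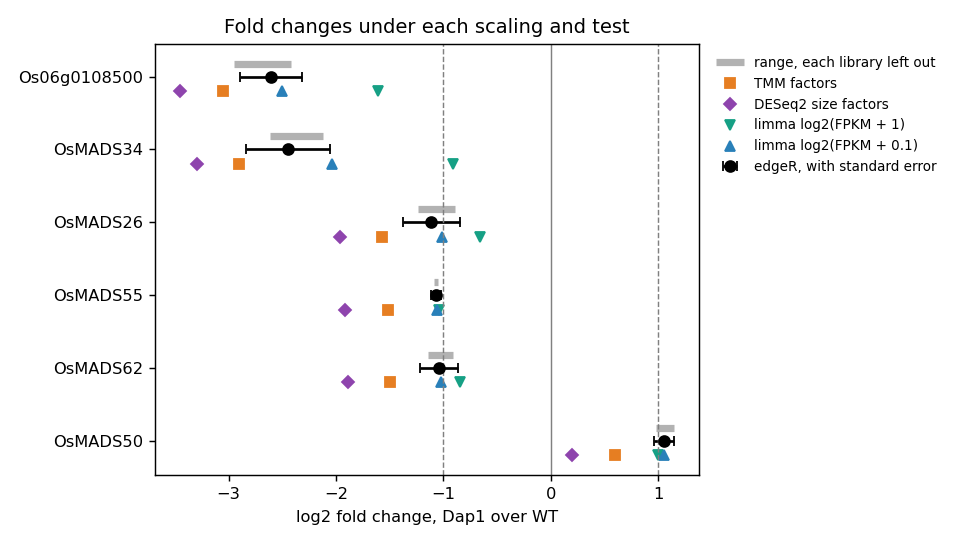
log2 fold change (*Dap1* over WT) of each MADS-box gene: black points with standard errors are edgeR's values, grey bars the range with each library left out in turn, coloured symbols other scalings and tests. Dashed lines mark the threshold of 1. Both other scalings move all 6 genes to the left, which takes *OsMADS50* to 0.60 and 0.20, and limma on log2(FPKM + 1) brings *OsMADS34* to -0.91.

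The spread between replicates differed among the members and followed no single library. WT replicate 1 was the highest WT library for *OsMADS34*, *OsMADS26* and *OsMADS62*, by 0.52, 0.38 and 0.19 in log2 FPKM above the WT mean. For *OsMADS50* and *Os06g0108500* it was WT replicate 2 that was highest, by 0.21 and 0.32. Among the *Dap1* libraries, replicates 1 and 3 were each the highest for 3 members.

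The order of the members by level was not the same in the 2 genotypes. In *Dap1* leaves it was *OsMADS55* (35.0 FPKM), *OsMADS50* (22.4), *OsMADS62* (2.98), *OsMADS26* (1.05), *Os06g0108500* (0.633) and *OsMADS34* (0.247), and no neighbours in this order had overlapping libraries. In WT leaves it was *OsMADS55* (73.2 FPKM), *OsMADS50* (10.8), *OsMADS62* (6.14), *Os06g0108500* (3.98), *OsMADS26* (2.25) and *OsMADS34* (1.36), and only the libraries of *OsMADS26* and *OsMADS34* overlapped. *Os06g0108500* and *OsMADS26* thus stood in the reverse order in *Dap1* leaves. Among the 925 listed genes ranked by mean FPKM, *OsMADS50* held place 124 in *Dap1* and 128 in WT, *OsMADS55* place 91 in *Dap1* and 31 in WT, and *OsMADS34* place 829 in *Dap1* and 459 in WT.

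The summed FPKM of the 6 genes was 63.57, 62.09 and 61.25 in *Dap1* leaves, against 99.09, 97.68 and 96.29 in WT leaves. The *Dap1* mean was 0.638 times the WT mean, and most of the difference lay in *OsMADS55*, the most abundant member, with 38.2 FPKM less in *Dap1*, against 11.6 FPKM more of *OsMADS50*. *OsMADS50* made up 35.9 ± 0.973% of this sum in *Dap1* and 11.0 ± 1.47% in WT (SD, n = 3 each). The share of *OsMADS55* was 56.2 ± 0.685% in *Dap1* and 74.9 ± 2.46% in WT. Shares within a library do not depend on how libraries are scaled to each other. The libraries of the 2 genotypes did not overlap in the shares of *OsMADS50*, *OsMADS55*, *OsMADS34* and *Os06g0108500* (two-sided exact permutation test, p = 0.1 for each, the smallest possible). In the share of *OsMADS26* they overlapped slightly, with 1.51 to 1.90% in *Dap1* and 1.86 to 2.90% in WT, as they did for *OsMADS62*, with 3.78 to 5.47% in *Dap1* and 5.46 to 7.0% in WT (p = 0.2 for each, exact permutation test). Because *OsMADS50* was listed for a rise and *OsMADS55*, most of the sum, for a fall, the listing itself largely sets their shares apart. The other shares follow from each gene's fold change set against that of the sum. How often such shares separate in other sets of listed genes was not computed.

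**Figure D3:**
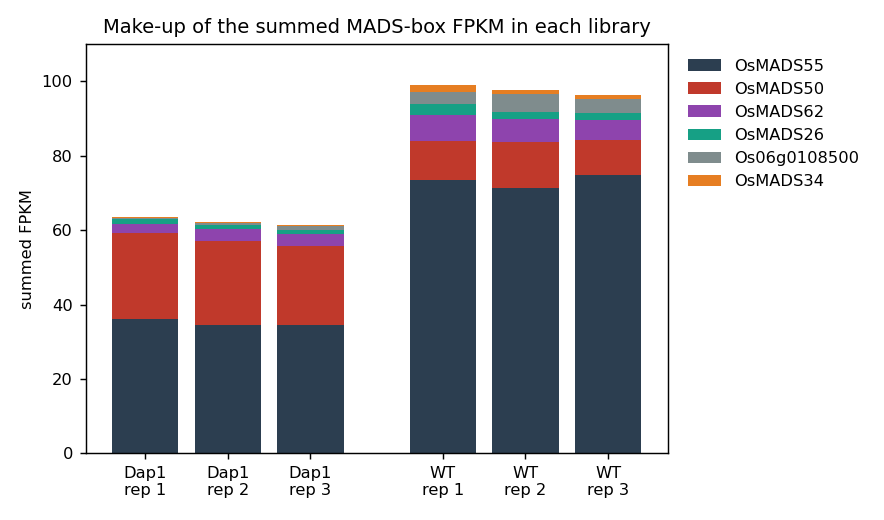
FPKM of the 6 MADS-box genes stacked for each library, *Dap1* on the left and WT on the right. The sum is 61.25 to 63.57 in *Dap1* and 96.29 to 99.09 in WT, and the *OsMADS50* part is larger in *Dap1*.

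Ratios between members within each library, which are also free of library scaling, were compared for all 15 pairs. *OsMADS50* had 0.639, 0.660 and 0.620 times the FPKM of *OsMADS55* in the *Dap1* libraries, against 0.142, 0.174 and 0.127 times in the WT libraries. Taken as log2 of FPKM + 0.1, this ratio was -0.64 ± 0.045 in *Dap1* and -2.76 ± 0.23 in WT (SD, n = 3 each), a 4.35-fold difference. The shift was of similar size against *OsMADS26*, whose FPKM *OsMADS50* exceeded 19.1, 24.2 and 21.3 times in *Dap1* and 3.65, 6.79 and 4.59 times in WT. Against *OsMADS62*, *OsMADS50* had 9.63, 7.10 and 6.36 times the FPKM in *Dap1* and 1.51, 1.99 and 1.80 times in WT. The largest shift of all pairs was against *Os06g0108500*, with 52.5, 40.6 and 23.7 times in *Dap1* and 3.14, 2.52 and 2.57 times in WT. The *Dap1* libraries did not overlap the WT libraries in any of the 5 pairs with *OsMADS50*. Each gene was listed for a change, *OsMADS50* for a rise and the other members for a fall. The listing itself thus sets these 5 pairs apart, and the share among all listed pairs of opposite direction was not computed. Over all pairs, 11 of 15 did not overlap, with these 5 among them, against 71.3% of all pairs of listed genes. Each of these 11 pairs had p = 0.1 in the two-sided exact permutation test (0.136 after Benjamini-Hochberg adjustment over the 15 pairs), the smallest possible.

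Among the 5 genes that fell, the separate pairs lay between 2 sets of members. In 6 of the 10 pairs the groups did not overlap, compared with 24.7% of all pairs of genes called lower, and each of these pairs set *OsMADS34* or *Os06g0108500* against *OsMADS55*, *OsMADS62* or *OsMADS26*. *OsMADS62* had 5.46, 5.71 and 3.72 times the FPKM of *Os06g0108500* in *Dap1* leaves and 2.08, 1.27 and 1.43 times in WT leaves. *OsMADS26* had 2.75, 1.68 and 1.11 times the FPKM of *Os06g0108500* in *Dap1* leaves and 0.859, 0.371 and 0.560 times in WT leaves. *OsMADS34* had 0.215, 0.213 and 0.280 times the FPKM of *OsMADS26* in *Dap1* leaves, against 0.659, 0.637 and 0.505 times in WT leaves. The 10 pairs are made from 5 genes and are not independent. In each of the 6 pairs *OsMADS34* or *Os06g0108500* was the gene with the larger fall, so the division restates the fold changes in these same libraries. This division did not hold with 1 added in place of 0.1, a value near or above the FPKM of *OsMADS34* in most libraries. The difference of the log2 ratio was then -0.14 in place of 0.98 for *OsMADS55* over *OsMADS34*, -0.06 in place of -1.02 for *OsMADS34* over *OsMADS62* and -0.25 in place of -1.03 for *OsMADS34* over *OsMADS26*. The groups overlapped in the first and second of these pairs, and they were separate for *OsMADS55* over *OsMADS26* and *OsMADS34* over *Os06g0108500*. With no pseudocount, and with ratios of counts + 1, the same 11 pairs were separate as with 0.1.

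In the other 4 pairs, those within these sets, the libraries of the genotypes overlapped. The log2 ratio of *OsMADS55* over *OsMADS62* was 3.52 ± 0.29 in *Dap1* and 3.56 ± 0.22 in WT (SD, n = 3 each, p = 0.8, exact permutation test). That of *OsMADS55* over *OsMADS26* was 4.94 ± 0.14 in *Dap1* and 4.99 ± 0.31 in WT (p = 0.8, exact permutation test). For *OsMADS26* over *OsMADS62* it was -1.42 ± 0.42 in *Dap1* and -1.43 ± 0.26 in WT (p = 1.0, exact permutation test). In edgeR the log2 fold changes in these 3 pairs differed by -0.02, 0.05 and -0.07, with standard errors of 0.19, 0.27 and 0.32 if the genes vary independently, so smaller differences between these genes were not detectable. *OsMADS34* over *Os06g0108500* was the least precise, at -1.04 ± 0.41 in *Dap1* and -1.50 ± 0.63 in WT (p = 0.4, exact permutation test). Without WT replicate 1, *OsMADS55* over *OsMADS26* and *OsMADS34* over *Os06g0108500* no longer overlapped, with differences of -0.23 and 0.82 in the log2 ratio, and 13 of 15 pairs were separate.

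**Figure D4:**
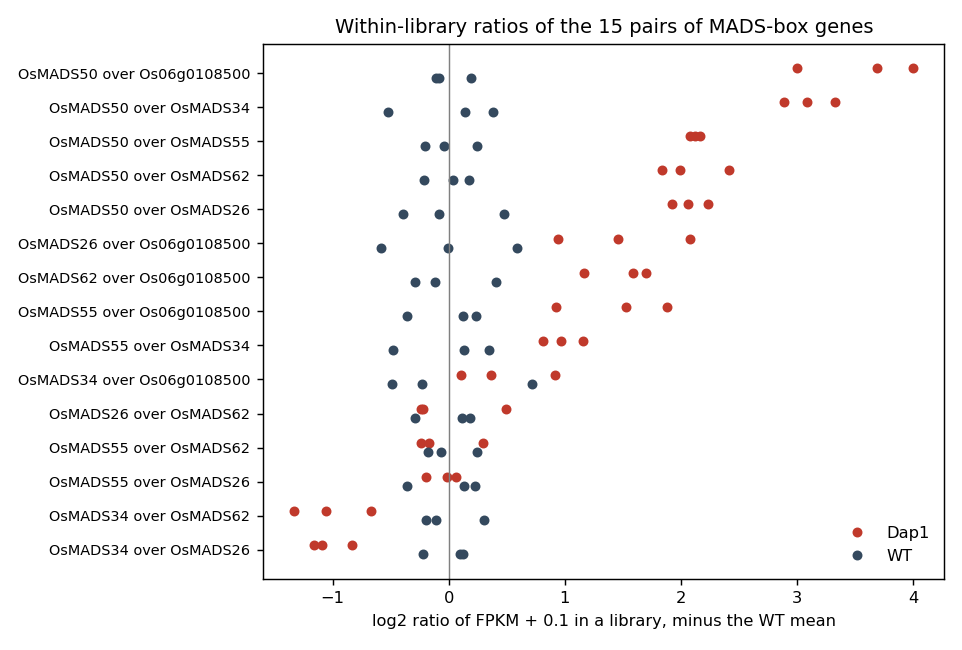
log2 ratio of FPKM + 0.1 of 2 MADS-box genes in each library, minus the WT mean of that pair, for the 15 pairs ordered by the difference between genotypes. Red points are *Dap1* libraries and dark points WT libraries; the groups are separate in 11 pairs and overlap in 4.

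In their annotation all 6 genes carry the nucleus and protein dimerization terms of GO, and none has a KEGG class. Protein dimerization activity is given for 17 listed genes, with the 6 members among them. Of these 17 genes 5 were called higher and 12 lower, against 56.9% and 41.7% of all listed genes. Plant ovule development is given for 2 of the 925 genes, and these are *OsMADS34* and *Os06g0108500*, the members that fell furthest. Flower development is given for 8 listed genes, 5 higher and 3 lower, and *OsMADS50* is the member among them. The term regulation of transcription is given for 5 of the 6 members, not for *OsMADS62*, and for 46 other listed genes. These 46 had a median log2 fold change of -1.13, with 17 called higher and 29 lower (63.0%). Over all listed genes the median was 1.15, with 41.7% called lower. The authors listed genes beyond a log2 fold change of 1 in either direction, so each median takes the sign of the more frequent direction. The median of the 6 MADS-box genes was -1.09. By absolute log2 fold change, *Os06g0108500* and *OsMADS34* held places 214 and 237 of 925, and the other 4 genes places 806 to 874, among the smallest changes in the table.

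**Figure D5:**
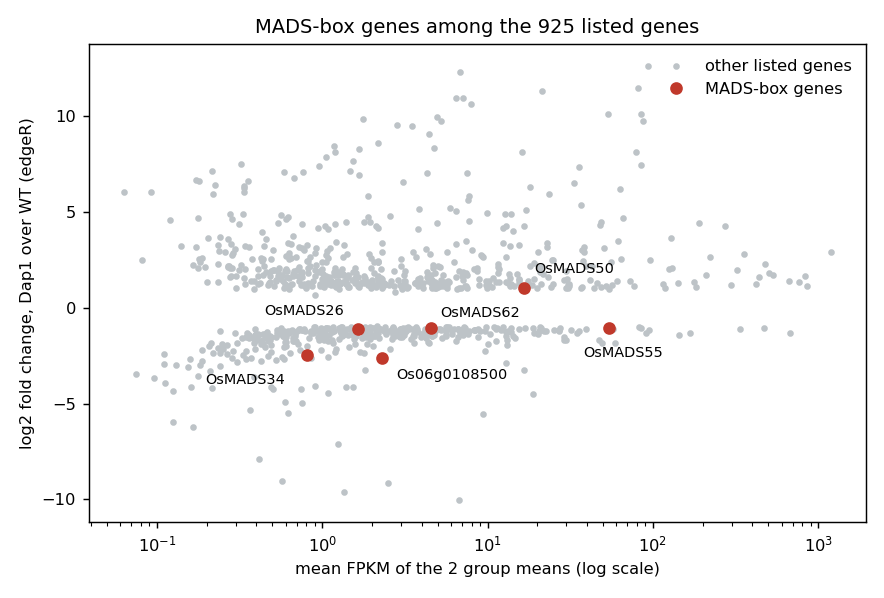
log2 fold change (*Dap1* over WT, edgeR) against mean FPKM on a log axis for the 925 listed genes in grey, with the MADS-box genes in red. *OsMADS50*, *OsMADS55*, *OsMADS62* and *OsMADS26* lie at the inner edge of the listed genes near 1 and -1, and *OsMADS34* and *Os06g0108500* lie at -2.45 and -2.61.

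Of 19 regulators of heading date and panicle form other than MADS-box genes that were looked up, 2 were listed, and both were called lower. Of all listed genes 98.6% were called, and 41.7% were called lower. *GHD7*, a CCT-domain repressor of flowering in long days, had an FPKM of 1.51, 1.49 and 1.21 in *Dap1* leaves, against 3.02, 3.08 and 3.11 in WT leaves (log2 fold change -1.13 with a standard error of 0.23, adjusted p = 1.0e-04 in edgeR). *SP1*, a transporter that affects panicle length, had 0.29, 0.17 and 0.47 FPKM in *Dap1* and 1.04, 0.74 and 0.91 in WT (log2 fold change -1.54 with a standard error of 0.32, adjusted p = 1.1e-04 in edgeR). Neither gene overlapped between the genotypes, and 99.0% of the listed genes did not either. In *Dap1* leaves a flowering activator, *OsMADS50*, was thus higher while a flowering repressor, *GHD7*, was lower.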

How the data were processed

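Leaf RNA of 3 *Dap1* and 3 WT samples was sequenced after oligo(dT) enrichment, and the labels give no batch. Reads were filtered with Fastp, cleared of rRNA with Bowtie 2, mapped to Nipponbare with HISAT 2, assembled with Stringtie and quantified with RSEM. Versions, genome build, annotation release and strand setting are not given in the sources used here, so antisense reads and reads shared with close family members cannot be told apart from a gene's own. The authors deposited raw counts of fragments per gene, FPKM (counts divided by transcript length and mapped fragments) and mean FPKM per group. The log2 fold changes, p-values and FDR that the authors deposited beside them are their own comparison and were not used. Only 925 genes called by the authors are listed, so whole-library depth is unknown.

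Library sizes were the median ratio of count to FPKM over 258 genes with FPKM of at least 2 in every library. Counts of all 925 genes were tested with edgeR 4.0.16 in R 4.3.3, adjusted over all of them, without a replicate block. Standard errors were obtained from each fold change and the square root of its F value. Ratios used a pseudocount of 0.1. DESeq2 1.42.0, limma 3.58.1, other scalings, a mean count of at least 10, edgeR's test for a change beyond 1 in log2 and each library left out were the alternatives. The fits were tested on simulated data. Replicates differed by more than sampling noise, and they are described as biological replicates. The named genes are all 6 MADS-box genes, the listed genes of a flowering list and, for each member, the 2 genes with the most similar profile. Members and lists were chosen with earlier results of these data known. Some flowering genes were not analysed here.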

Additional observations from a re-analysis of the deposited data

How the results depend on the processing

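All 6 MADS-box genes kept their direction under the 14 alternatives, and each kept an adjusted p under 0.05 in the 13 that test for any change. The number called, 6 in edgeR, was 5 with TMM factors and with DESeq2's size factors (*OsMADS50* lost), 2 with limma on log2(FPKM + 1), 3 in edgeR's test for a change beyond 1, and 4 to 6 with each library left out. Without WT replicate 1 *OsMADS26* and *OsMADS62* were lost, without WT replicate 3 *OsMADS50* (0.98), and without *Dap1* replicate 1 *OsMADS62*. Of the listed flowering regulators, 2 in edgeR, 0 passed with limma on log2(FPKM + 1), where both had an unadjusted p under 0.05 and were inside the fold threshold, and 1 passed the test for a change beyond 1. Over all listed genes 912 were called by edgeR 394 by limma on log2(FPKM + 1), and 858 to 882 with each library left out. The split of 526 higher and 386 lower became 342 and 393 with TMM factors and 251 and 393 with DESeq2's size factors. With 1 added to FPKM, 11 of 15 pairs still did not overlap, but *OsMADS55* over *OsMADS34* (reversed to -0.14) and *OsMADS34* over *OsMADS62* were lost and *OsMADS55* over *OsMADS26* and *OsMADS34* over *Os06g0108500* gained; the 2 gained pairs were also separate without WT replicate 1 (13 pairs; 11 without any other library). With the replicate block 6 genes were called and no call of a member changed. Same-numbered libraries did not deviate together (correlations -0.007, -0.016 and -0.028 over 431 genes). The labels do not say whether same-numbered samples were paired, and these correlations cannot settle it. Low counts limit *OsMADS34* and *Os06g0108500* most.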

Other observations

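For each member the listed genes with the most similar profile over the 6 libraries were found by Pearson's r of log2(FPKM + 0.1). Since every listed gene was chosen for a difference between the genotypes, high values are common: r was over 0.95 for 220 of 618 genes with *OsMADS50*, 164 with *OsMADS55*, 107 of 619 with *OsMADS34*, 111 with *Os06g0108500*, 36 with *OsMADS62* and 22 with *OsMADS26*. The points share their libraries and the values are descriptions only. For *OsMADS50* the nearest were *Os01g0848900*, a conserved hypothetical gene with 20.3 FPKM in *Dap1* and 6.92 in WT, and *OsDREB1G*, a CRT/DRE binding factor with 3.44 FPKM in *Dap1* and 0.670 in WT. For *OsMADS55* they were *Osoxo4*, an oxalate oxidase with 2.97 FPKM in *Dap1* and 9.91 in WT, and the sugar transporter gene *OsSWEET2b*, with 58.7 FPKM in *Dap1* and 132 in WT. For *OsMADS34* they were *ONAC001* (r = 0.991), a NAC-domain factor with 4.58 FPKM in *Dap1* and 10.8 in WT, and *TOND1*, a thaumatin gene of nitrogen-deficiency tolerance with 2.68 FPKM in *Dap1* and 7.90 in WT. For *OsMADS62* they were the glyoxalase gene *GLYI10* (0.813 FPKM in *Dap1* and 3.25 in WT) and *Os06g0264500*. The nearest to *OsMADS26* were *Os11g0644700*, described as a disease resistance response protein (2.60 FPKM in *Dap1* and 6.86 in WT), and a reconstructed transcript. *Os06g0204400*, similar to an aminoalcoholphosphotransferase (4.78 FPKM in *Dap1* and 9.70 in WT), and *Os12g0222900* were nearest to *Os06g0108500*.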
